A study of Mus musculus with 3 samples.

Results

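The 10 genes described here encode transcription factors and cofactors of blood formation: Runx1, Spi1, Tal1, Gfi1, Gfi1b, Lyl1, Lmo2, Ikzf1, Myb and Gata2. They were taken as listed from a RefSeq table of 21887 protein-coding genes, and binding of FOXF1, a forkhead transcription factor that the mesenchyme and vessels of the lung need, was read at each. ChIP-seq was done on whole lung of wild-type embryos (C57BL/6, embryonic day 18.5), with 2 biological replicates that each pooled 3 lungs and a 2% input from lung of the same strain and stage as the control. No treatment, mutant or second stage was part of the design. Each replicate has a list of peak summits that the authors called against the input.

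A shared site is a pair of summits, one from each replicate, that were each other's nearest and at most 100 bp apart. A shared site was given to a gene when it lay inside it, or within 100 kb of it with that gene's end the nearest end of a protein-coding gene. The rule gave 41 of the 51013 shared sites to the 10 genes. Because whole lung was used, binding in few cells and weaker binding in many cells cannot be told apart. The data hold no RNA, so whether any of these genes was expressed was not measured.

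Blood stem cells arise in the embryo from a specialised endothelium, and several regulators of that step stay active in both lineages. Tal1 and Lyl1 are related helix-loop-helix factors that bind DNA with partners, Lmo2 is the bridging protein of their complex, Gata2 is a zinc finger factor of stem cells and endothelium, and Runx1 is required for blood to emerge from endothelium. The others act mainly within blood lineages, though the division is coarse and a factor can act on both sides of it. Spi1 encodes PU.1, an ETS factor of myeloid and B cells, Gfi1 and Gfi1b are zinc finger repressors, Ikzf1 encodes Ikaros of lymphoid cells, and Myb maintains progenitors. This division follows general knowledge of the factors and was made with earlier results of these data known.

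Runx1 and Gata2 each have a distal and a proximal start of transcription in the RefSeq table, and the shared site lay at the proximal one in both. At Runx1 the site at chromosome 16 position 92697317 was 12 bp downstream of the proximal start, and the nearest site to the distal start was 19440 bp upstream of it. At Gata2 the site at chromosome 6 position 88198693 was 29 bp downstream of the proximal start, and the nearest to the distal start was 3100 bp upstream. A replicate 1 summit without a partner in replicate 2, with a score of 3.63, lay 286 bp downstream of that distal start. The 250 bases before each of these 4 starts are shown so that the starts of a gene with and without a shared site can be read side by side. The window before the first start of Tal1 is added because summits of both replicates lay 513 and 638 bp from that start, 125 bp apart and so just outside the 100 bp allowed for a shared site. They are from RefSeq, build GRCm38.p6 (the assembly of mm10), 5′ to 3′ on the strand of the gene, with capitals marking the motif letters found.
Runx1 proximal start, chr16:92697330-92697579, minus strand: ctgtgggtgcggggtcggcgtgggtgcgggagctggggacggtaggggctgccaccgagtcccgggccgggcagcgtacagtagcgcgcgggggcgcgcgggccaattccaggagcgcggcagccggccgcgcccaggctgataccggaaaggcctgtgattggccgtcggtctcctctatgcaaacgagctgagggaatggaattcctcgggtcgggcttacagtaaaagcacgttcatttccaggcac
Runx1 distal start, chr16:92826075-92826324, minus strand: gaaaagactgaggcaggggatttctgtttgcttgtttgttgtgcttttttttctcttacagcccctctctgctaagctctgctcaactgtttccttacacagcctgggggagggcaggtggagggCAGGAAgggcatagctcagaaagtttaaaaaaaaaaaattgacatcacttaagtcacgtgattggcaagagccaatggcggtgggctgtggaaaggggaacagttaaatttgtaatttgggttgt
Gata2 proximal start, chr6:88198414-88198663, plus strand: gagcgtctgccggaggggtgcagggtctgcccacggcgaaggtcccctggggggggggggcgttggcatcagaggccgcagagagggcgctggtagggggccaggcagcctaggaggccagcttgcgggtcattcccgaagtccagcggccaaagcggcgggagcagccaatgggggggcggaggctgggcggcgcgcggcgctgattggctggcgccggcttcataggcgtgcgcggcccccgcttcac
Gata2 distal start, chr6:88193641-88193890, plus strand: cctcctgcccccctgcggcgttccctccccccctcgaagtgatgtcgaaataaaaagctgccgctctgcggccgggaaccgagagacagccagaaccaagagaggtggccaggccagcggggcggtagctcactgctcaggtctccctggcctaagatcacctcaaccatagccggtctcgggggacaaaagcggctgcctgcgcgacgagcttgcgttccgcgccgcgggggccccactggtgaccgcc
Tal1 first start, chr4:115056176-115056425, plus strand: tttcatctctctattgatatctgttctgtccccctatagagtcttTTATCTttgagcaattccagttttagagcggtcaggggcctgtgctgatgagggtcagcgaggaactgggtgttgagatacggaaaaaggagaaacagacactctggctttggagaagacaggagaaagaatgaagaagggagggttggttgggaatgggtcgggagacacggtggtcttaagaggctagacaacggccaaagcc

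The letters searched, on both strands, were TGTTTA and TGTTTAC for forkhead factors, AGATAA for GATA factors, CAGGAA for ETS factors and CAGCTG for helix-loop-helix factors. TGTTTA lies within TGTTTAC, so a match to the longer motif is also a match to the shorter. RefSeq starts were matched for 8 of the 10 genes, with 13 starts in all; Spi1 and Lmo2 were not matched. TGTTTA was in 0 of the 13 windows and in 10.5% of the 21263 windows of protein-coding genes, and TGTTTAC was in 0 and in 2.62%. CAGCTG was in 0 of 13 and in 12.1% of all. AGATAA was in 1 of 13, the first start of Tal1, and in 8.81% of all. CAGGAA was in 5 of 13 and in 24.5% of all, among them the distal start of Runx1. Both proximal windows shown held none of these letters, and neither did the distal window of Gata2, while the window of Lyl1, whose start also had a site nearby, held CAGGAA. The share of G and C was 67.6% at the proximal and 45.6% at the distal start of Runx1, 74.0% and 67.2% at those of Gata2 and 60% at Lyl1, against a median of 55.6% over all windows. The highest shares, 82.0% at a start of Ikzf1 and 81.2% at Myb, were at starts with no shared site within 1 kb. Of the 13 starts, 3 had a shared site within 1 kb (23.1%), against 41.5% of all RefSeq starts of protein-coding genes. The third was that of Lyl1, with a site 324 bp downstream. With summits paired at up to 200 bp, an alternative added after seeing the data, both starts of Tal1 also had a site, which made 5 of 13 (38.5%) against 47.2% of all. These are counts over 13 starts, and the difference was not tested.

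Of the 10 genes, 9 had at least 1 shared site, and over all protein-coding genes the share was 60.7%. The exception was Gfi1b (chromosome 2, 28609450 to 28621982), with no summit in either replicate. At least 4 sites were given to 6 of the 10 genes, against 17.3% of all genes, and at least 9 to Lyl1 and Lmo2, against 5.81% of all. The median was 4 sites per gene, against 1 over all protein-coding genes. The stretch from which a gene could receive sites had a median of 58.7 kb, against 49.5 kb over all genes. Per 100 kb of that stretch the median was 2.82 sites, against 1.55 over all genes. The number of sites thus lay above the general level under this rule, and the gap narrowed under some others. It did not narrow with pairing at 200 bp (median 4.5 against 1), nor in replicate 1 alone (7 against 2) or replicate 2 alone (4.5 against 1). When noncoding genes also competed for sites, the median was 1.5 against 1 over all genes, and 3 of the 10 had at least 4 sites, against 13.1% of all. For sites inside the gene only, the median was 1 against 0, and 1 of the 10 had at least 4, against 9.40% of all. With a reach of 20 kb the median was 1.5 against 1, and 4 of the 10 had at least 4, against 13.7% of all. With a score of at least 10 the median was 3 against 1, and 2 of the 10 had at least 4, against 13.5% of all.

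Of these sites, 7 lie inside another gene. The right end of Lyl1, right meaning towards higher coordinates, and the left end of Nfix, which encodes a nuclear factor I protein, lie 4 bp apart on chromosome 8, where the genes overlap. Sites to the right of both are inside Nfix and were given to both genes. Not counting them left Lyl1 with 2 sites and the 10 genes with 34, a median of 3 per gene, and 59.1% of all genes with a site. It left 9 genes with a site, 5 genes with at least 4 and 1 gene, Lmo2, with at least 9. No site of the other nine genes lay inside another protein-coding gene.

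**Figure D1:**
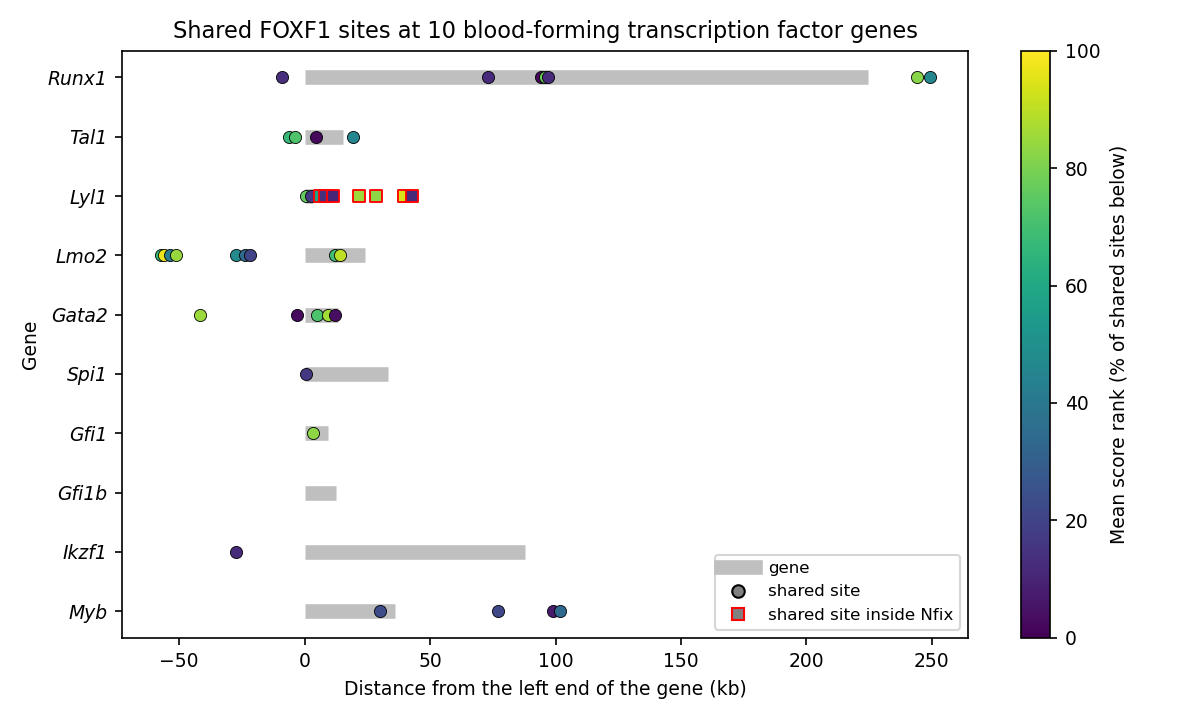
Position of the 41 shared FOXF1 sites along each gene, as the distance in kb from the end of the gene with the lower coordinate; grey bars are the genes, points the sites, squares with a red edge the sites inside Nfix, and colour the mean of both replicates' score ranks. The sites of Lmo2 form a group over 50 kb to the left of the gene, one 21715 to 27294 bp to its left and a pair inside it, and Gfi1b has none.

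The score of a site is the authors' −log10 significance, which depends on sequencing depth. Each score was therefore also given as a rank, the percentage of the 51013 shared sites with a lower score in the same replicate. By rank, the sites of these genes held a larger share of low scores than all shared sites, and a share of high scores nearer the general one. Of the 41, 12 were among the highest 25% of scores in both replicates (29.3%), against 20.3% of all shared sites, and 16 were among the lowest 25% in both (39.0%), against 17.7% of all. Without the sites inside Nfix these were 9 of 34 (26.5%) and 13 of 34 (38.2%). The median of the mean rank was 45.7, against 49.4 for all shared sites. It stayed near that with a reach of 20 kb (45.7) or pairing at 200 bp (47.3). Elsewhere it moved, to 23.0 inside the gene only, 34.4 with noncoding genes competing and 36.2 with pairing at 50 bp. With a score of at least 10 it was 62.2, and with the 10000 highest summits of each replicate 14.9. Values for pairing distances, the score minimum and the highest summits are not ranks among the 51013, because these settings changed the set ranked. The low value of 14.9 therefore does not mean low scores. Only Lmo2, Lyl1 and Gata2 kept sites there, and their highest sites had mean ranks of 97.0, 94.5 and 85.9 among the 51013. A site among the highest 25% in both replicates was present at 5 genes, Runx1, Gfi1, Lyl1, Lmo2 and Gata2, while 21.5% of all protein-coding genes had one. The replicates ranked the sites alike, with a median gap of 4.54 percentage points between the ranks, against 7.76 over all shared sites. The widest gap was 22.1 points, at the Runx1 site 9137 bp to the left of the gene.

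**Figure D2:**
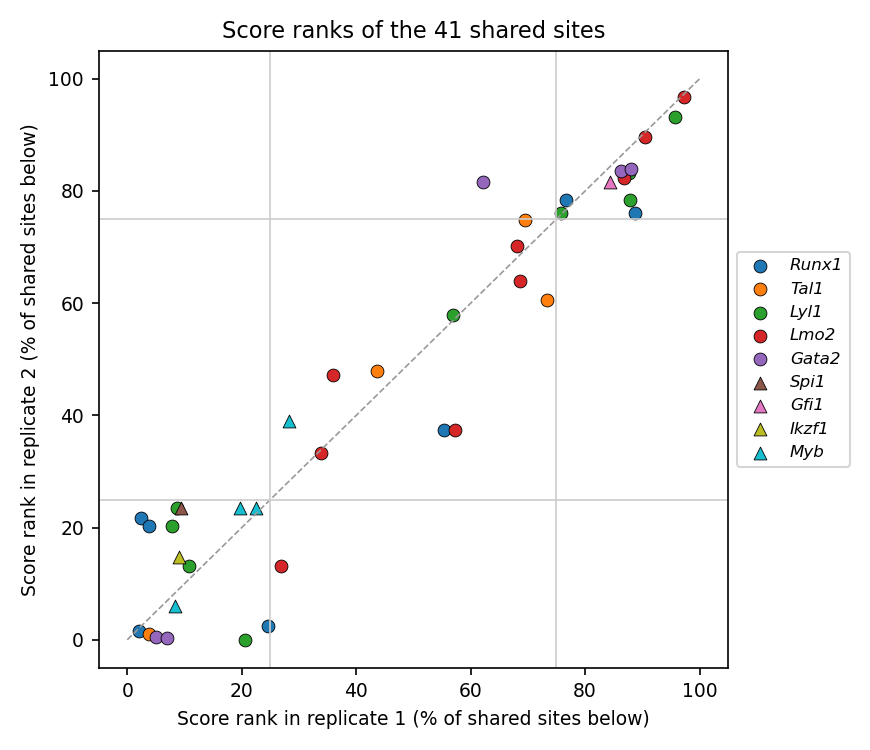
Score rank of each of the 41 shared sites in replicate 1 (x axis) and replicate 2 (y axis), in percent of shared sites with a lower score; circles are genes shared with endothelium, triangles genes of blood lineages, grey lines mark 25% and 75%, and the dashed line equal ranks. Of the sites, 12 lie in the upper right corner and 16 in the lower left, and Gfi1 has the one triangle in the upper right.

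Lmo2 carried the highest site of the 10 genes. It lay at chromosome 2 position 103901666, 56237 bp to the left of the gene and inside the noncoding RNA gene Lincred1, scoring 176 in replicate 1 and 86.4 in replicate 2, above 97.2% and 96.8% of shared sites. It belonged to a group of 4 sites within 6186 bp, which also held a site at 103906743 with scores of 104 and 44.6. Lmo2 spans 103957903 to 103981878, and the nearest other protein-coding gene was 85750 to 91936 bp from these 4 sites. Inside Lmo2 a site at 103971891 scored 120.0 and 57.8, and its neighbour at 103970143, 1748 bp away, scored 63.0 and 32.0. The remaining 3 sites, 21715 to 27294 bp to the left, were lower, with scores of 28.8 to 50.8 in replicate 1 and 7.78 to 14.1 in replicate 2. All 9 summits of replicate 2 at Lmo2 were paired, and replicate 1 listed 17.

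Gata2, on chromosome 6 from 88193891 to 88207032, had 5 sites, of which 2 were high in both replicates. The first was inside the gene at position 88203128, 9237 bp downstream of the distal start, with scores of 108 and 47.3. The second lay at 88152303, 41588 bp upstream of the distal start, with scores of 102 and 46.8. The site at the proximal start scored 55.8 and 43.7 and ranked higher in replicate 2 (81.5%) than in replicate 1 (62.2%). The other two, at 88190791 upstream of the gene and at 88206182 near its right end, were among the lowest, with 14.1 and 3.76, and with 16.2 and 3.64. An enhancer in an intron of Gata2 and elements upstream of it are known from blood stem cells and endothelium. Whether the sites coincide with those elements was not tested.

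Runx1, the longest of the genes at 224.6 kb (chromosome 16, 92601466 to 92826074), had 7 sites. The highest by the mean of both ranks lay outside it, at position 92845514, 19440 bp upstream of the distal start, with scores of 112 and 37.3. A second upstream site at 92850635 scored 48.9 and 14.1. The site at the proximal start scored 77.0 and 40.0, lower than that site in replicate 1 and higher in replicate 2. The other four scored 10.8 to 27.6 in replicate 1 and 4.60 to 9.999 in replicate 2, and 2 of them, at 92695559 and 92698348, flanked the proximal start within 2 kb. Over the stretch from which Runx1 could receive sites, 354.7 kb, this made 1.97 sites per 100 kb, which was near the median of 1.55 over all protein-coding genes. Replicate 1 listed 30 summits there and replicate 2 listed 9.

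Tal1, on chromosome 4 from 115056426 to 115071755, had 4 sites in a stretch of 30.4 kb, or 13.2 per 100 kb, a density above that of 95.6% of protein-coding genes. Upstream of its first start lay a site at 3639 bp (position 115052787), with scores of 65.1 and 36.0, and a site at 6390 bp, with scores of 70.9 and 25.2. A site at 115075712, 3957 bp beyond the right end and 19286 bp downstream of the first start, scored 39.4 and 18.4. The fourth, inside the gene at 115060935, was low, with 12.9 and 4.44. Enhancers of Tal1 active in blood progenitors and endothelium are known both upstream and downstream of the gene. Whether the sites coincide with them was not tested.

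The pairing distance of 100 bp decided a further region of Tal1. Summits at 115056939 in replicate 1, with a score of 57.9, and at 115057064 in replicate 2, with 49.4, lay 125 bp apart inside the gene, 513 and 638 bp from its first start. They became a shared site at 200 bp, which gave Tal1 5 sites. On the inner side of the threshold was the Lyl1 pair at 84701781, with summits 99 bp apart, which was lost at 50 bp. The median distance between paired summits was 24 bp for the 41 sites and 13 bp for all shared sites.

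Lyl1, a short gene of 3294 bp (chromosome 8, 84701423 to 84704716), had 2 sites of its own. The one at position 84701781, 324 bp downstream of its start, scored 75.2 and 37.3, and the one at 84703978 scored 17.7 and 10.2. The highest of the 7 sites inside Nfix lay at 84741056, 36340 bp from Lyl1, with scores of 157 and 67.8. The next were at 84723074, with 107 and 46.4, and at 84730047, with 108 and 40.0. Not counting the sites inside Nfix, the density of Lyl1 was 3.82 per 100 kb instead of 17.2. Both values divide by the same stretch of 52.4 kb, which includes the part inside Nfix. The 3.82 is therefore not the density outside Nfix.

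The genes of blood lineages had a median of 1 site, as all protein-coding genes did, and most of their sites were low. Gfi1, on chromosome 5 from 107716655 to 107725805, had 1 site, inside the gene at position 107719945, with scores of 96.2 and 43.7, above 84.4% and 81.5% of shared sites. Spi1, on chromosome 2 from 91082374 to 91115759, had 1 site, 731 bp inside its left end at position 91083105, with scores of 18.1 and 10.2. Ikzf1, on chromosome 11 from 11684962 to 11772930, had 1 site, 28459 bp upstream of its first start at position 11657466, with scores of 17.8 and 8.15. It had no shared site inside its 88.0 kb, where replicate 1 alone listed 2 summits. In replicate 1 these single sites of Spi1 and Ikzf1 scored above 9.32% and 9.10% of shared sites.

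Myb, on chromosome 10 from 21124930 to 21160984, had 4 sites, of which 1 was inside the gene and 3 lay between it and its neighbour Hbs1l. The site inside, at position 21155001, scored 26.3 and 10.2. The upstream sites lay 41033, 62780 and 65553 bp from the start of Myb. The nearest of these scored 24.6 and 10.2, and the farthest had the highest scores of the gene, 29.6 and 14.8. The region between Myb and Hbs1l is known to hold enhancers of Myb in red blood cell precursors, and whether the sites coincide with them was not tested. None of the Myb sites was among the highest 25% of either replicate.

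Set side by side, the genes shared with endothelium had 34 sites (27 without those in Nfix) and the genes of blood lineages had 7. The median density was 8.23 sites per 100 kb for the former and 2.17 for the latter, against 1.55 over all protein-coding genes. Not counting the sites in Nfix, the former was 7.69, with the stretch of Lyl1 still including the part inside Nfix. The groups overlapped, since Runx1 had 1.97, below Spi1 (2.47), Gfi1 (2.17) and Myb (3.18). The other genes shared with endothelium lay above every blood lineage gene. The median count of the genes shared with endothelium was 7, and 4 with a reach of 20 kb or with noncoding genes competing. With a score of at least 10 it was 3, and inside the gene only it was 2. In replicate 2 alone it was 9, and in replicate 1 alone 14. Of the 7 sites of blood lineage genes, 5 were among the lowest 25% in both replicates, against 17.7% of all shared sites. The 10 genes had 16 sites that low, and the rest of these belonged to the genes shared with endothelium. No test was made between these groups of genes, since their division was known from earlier results.

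**Figure D3:**
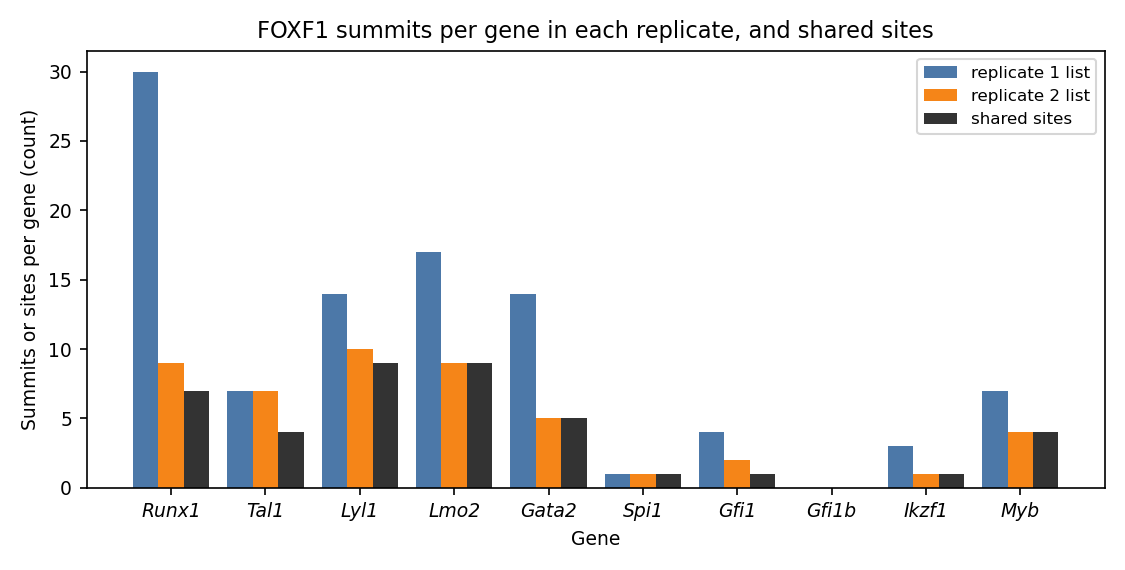
Number of summits of replicate 1 and of replicate 2 and of shared sites (y axis, counts) given to each gene by the same rule. Replicate 1 exceeds replicate 2 at 7 of the genes, most of all at Runx1 with 30 against 9, and Gfi1b has 0 in both.

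The counts moved with the replicate whose list was used. The 10 genes received 97 summits from replicate 1 and 48 from replicate 2, from lists of 107378 and 61172 summits on the nuclear chromosomes. In replicate 1 alone, Gata2 had 14, Lyl1 14, Myb 7, Tal1 7, Gfi1 4, Ikzf1 3 and Spi1 1. In replicate 2 alone, Lyl1 had 10, Tal1 7, Gata2 5, Myb 4, Gfi1 2, and Ikzf1 and Spi1 1 each. In both lists the same 9 genes had a summit and Gfi1b had none, while 72.4% of all protein-coding genes had one in replicate 1 and 65.3% in replicate 2. The counts of Lyl1 include summits inside Nfix. When pairing was limited to the 10000 highest summits per replicate, 3 genes had shared sites, namely Lmo2 with 3 and Gata2 and Lyl1 with 2 each, and 16.6% of all protein-coding genes had one.

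Inside a protein-coding gene lay 22 of the 41 sites (53.7%), of which 15 were inside the gene itself, against 57.9% of all shared sites. Without the 7 sites inside Nfix, the share was 15 of 34 (44.1%). Inside a noncoding RefSeq gene lay 14 of the 41, while 12.3% of all shared sites did. Of the 26 outside the gene, 8 were within 10 kb of an end and 18 farther. Another shared site lay within 2 kb of 8 of the 41 (19.5%), against 21.0% of all shared sites.

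Partners and relatives of these factors were described from a list of 28 genes by the same rule. At least 1 site was given to 21 of them (75%), against 60.7% of all protein-coding genes. The median was 3.5 sites per gene, against 1 over all. Tcf4, which encodes a helix-loop-helix partner of Tal1, had the most with 44, in the longest stretch of the list, 544.5 kb, and the ETS factor genes Ets1, Erg and Fli1 had 32, 23 and 23. Per 100 kb these were 8.08 sites at Tcf4, 11.9 at Ets1, 7.31 at Erg and 12.8 at Fli1, and Nfe2, with 3 sites in 18.2 kb, reached 16.5. The median stretch of the list was 105.9 kb, against 49.5 kb over all protein-coding genes, and its median density was 4.08, against 1.55. The highest-ranked site of the list was that of Erg at chromosome 16 position 95449557, with scores of 257 and 140.3. Among the cofactors of Runx1 and of the Tal1 complex, Cbfb had 1 site, Ldb1 3, Tcf12 15, Cbfa2t3 11 and Tcf3 1. No site was given to Gata1 or Klf1, which act in red blood cell precursors, nor to Tal2, Cebpe, Hoxa9, Ikzf2 or Ikzf3. The Runx relatives Runx2 and Runx3 had 12 and 1.

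Markers of the cell types that whole lung holds stood at both ends. Of 18 markers of blood and immune cells, 5 had a site (27.8%), against 60.7% of all protein-coding genes. Their median was 0 per gene, against 1 over all. The most were at Kit, the receptor of stem cell factor, with 17, and at Ptprc, a surface phosphatase of blood cells, with 5. The globin genes Hba-a1 and Hbb-bt of red cells, Csf1r and Adgre1 of macrophages and Cd3e of T cells had no summit in either replicate. Of 14 endothelial markers, 14 had a site, against the same 60.7% of all genes. The median of these markers was 11.5 per gene, from 1 at Tie1 to 23 at Kdr. The median of the genes shared with endothelium was 7 (5 without the sites inside Nfix), between those of the marker lists, and that of the blood lineage genes was 1. These counts describe the lists, and no difference between them was tested; the stretch from which sites could come also differed, with a median of 25.7 kb for blood and immune markers, 87.6 kb for endothelial markers and 58.7 kb for the 10 genes.

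**Figure D4:**
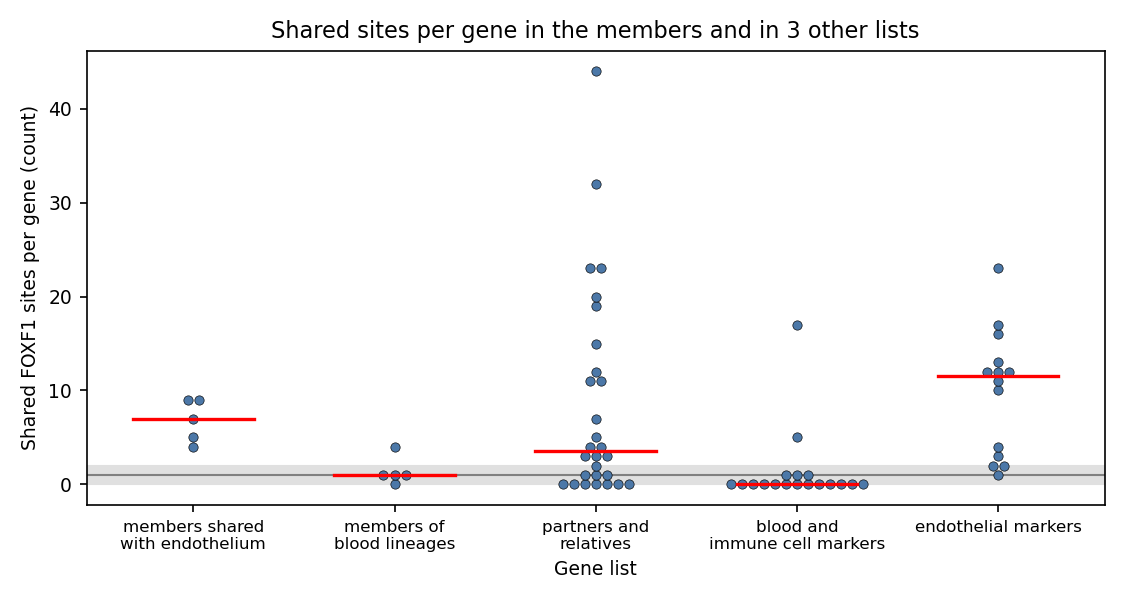
Shared sites per gene (y axis, counts) for the 10 genes in their 2 groups and for 3 other lists; each point is a gene, the red line is the median of its list, and the grey band and line give the quartiles (0 to 2) and the median (1) of all protein-coding genes. The genes shared with endothelium lie from 4 to 9 (2 to 9 without the sites inside Nfix), and 13 of the 18 blood and immune markers lie at 0.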

How the data were processed

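Peak summits of FOXF1 chromatin immunoprecipitation were deposited by the authors as 1 list per replicate, called with MACS2 on mm10 against the input, per the submitters' processing notes and the peak names. Aligner, options, duplicate handling and read depth were not given in the sources used here. A −log10 significance was deposited as the score, whether of a p or a q value not being stated; its size was not compared between replicates. Of 107388 and 61178 summits, the 107378 and 61172 on nuclear chromosomes entered. Shared sites lie midway between paired summits, positions are 1-based, and a tie in distance counted for both genes. Gene ends came from a RefSeq table on GRCm38, the assembly of mm10; it gives no exons, and sequence at the sites was not used here. Densities divide a gene's sites by the length of the stretch from which it could receive them. That stretch was left unchanged where the sites inside Nfix were not counted. The design has 1 condition, so no test between groups was made. Pairing and assignment were tested on simulated data. All 10 genes are named, with their 3 highest-ranked sites and those within 1 kb of an end; other sites named in the text were chosen after their values were seen. Of the other lists, the genes with the most sites, the highest site or none are named by rule, and the rest were also chosen after their values were seen. The members and lists were chosen with earlier results of these data known. Python 3.11.15, pandas 2.3.3 and numpy 2.4.6 were used. Results for some listed genes are not reported here.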

Additional observations from a re-analysis of the deposited data

How the results depend on the processing

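The number of the 10 genes with a shared site was 8 or 9 under every alternative tried except the 10000 highest summits of each replicate, where it was 3. The share of all protein-coding genes with a site was 48.1% for sites inside the gene only, 56.3% with a score of at least 10, 57.4% when noncoding genes competed, 16.6% with the 10000 highest summits and 72.4% from replicate 1 alone. The total of 41 shared sites fell to 7 with those summits, to 25 with a reach of 20 kb around genes, to 15 for sites inside the gene only and to 22 when noncoding RefSeq genes also competed for a site. In the last case Lmo2 kept 2 sites and Lyl1 5. With one replicate left out, the total was 48 to 97 and the number of genes 9 in both cases. Pairing at 50 or 200 bp gave 32 and 42 sites, a score of at least 10 gave 28, and not counting sites inside another gene, an alternative added after seeing the data, gave 34. The larger total from replicate 1 alone moves with its longer list; the cause was not tested. No paired analysis was possible because the 2 replicates belong to 1 group and the input has no list of its own here. Without read depth or input counts, the absence of a summit at Gfi1b says only that none was called.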

Other observations

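The sites inside noncoding RefSeq genes were spread over several of the 10 genes. At Lmo2, 3 of the sites of the left group lay inside Lincred1 and both sites within the gene lay inside Gm38515. At Tal1 both upstream sites lay inside Gm52674, at Gata2 both upstream sites lay inside Gm38708, and at Myb both of the farthest sites lay inside Gm33671. Whether these RNAs are made in the fetal lung was not measured.

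Summits without a partner were mostly low. At the 10 genes replicate 1 had 56 of them, with a median score of 8.18, and replicate 2 had 7, with a median of 8.20. Runx1 had 23 of the 56. Beside the Tal1 pair described above, the highest was a replicate 1 summit inside Runx1 at chromosome 16 position 92788540, with a score of 33.6, whose nearest replicate 2 summit lay 57010 bp away. A replicate 1 summit at chromosome 10 position 21161048, with a score of 16.9, lay 64 bp outside the right end of Myb, where its transcription starts, and the nearest replicate 2 summit was 6013 bp away.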
